A study of Mus musculus with 4 samples.

Results

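Genes of the bone morphogenetic protein (BMP) pathway were followed through single cells of the injured mouse jejunum. They are the ligand genes Bmp2, Bmp4, Bmp5 and Bmp7, the antagonist genes Grem1 and Chrdl1, and the target genes Id1, Id2, Id3 and Smad6, and they were taken by their symbols. They are 10 of the 32286 features that the files count. The cells came from the distal jejunum of 4 adult male mice, 2 per genotype, at 18.5 h after intestinal ischemia and reperfusion (I/R), an injury made by clamping the superior mesenteric artery and releasing it. All 4 mice carried floxed alleles of both Foxc1 and Foxc2. Control mice were Foxc1fl/fl;Foxc2fl/fl and had no Cre, whereas EC-Foxc-DKO mice were Cdh5-CreERT2;Foxc1fl/fl;Foxc2fl/fl, in which tamoxifen activates Cre recombinase in cells that use the Cdh5 promoter, blood and lymphatic endothelial cells (BECs and LECs) alike. The deletion is thus aimed at the endothelium. According to the paper, adult male mice received tamoxifen by oral gavage on consecutive days, and the I/R surgery followed days later. Its methods make no exception for control mice. No uninjured mice are among these samples, so that none of the values shows what I/R itself did.

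BMPs are secreted ligands that bring together type I and type II receptors on the receiving cell, and the receptors then phosphorylate SMAD1, SMAD5 and SMAD9, which enter the nucleus with SMAD4. Id1, Id2 and Id3 are among the best known targets and encode inhibitors of basic helix-loop-helix transcription factors, while SMAD6 is made in response to the signal and damps it. In the small intestine BMP signals are strong along the villus and weak at the crypt base, where stromal cells secrete antagonists such as gremlin 1, the product of Grem1, that hold the ligands away from the stem cells.

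Transcripts were counted as unique molecular identifiers (UMIs), 1 for each molecule captured from a cell in its droplet. Cells with at most 10% mitochondrial UMIs were kept, 5615 of 22679 barcodes (24.8%), and they held a median of 4254.5 to 19871 UMIs per mouse. They were clustered without the 10 genes and without 35 other genes of the pathway, so that none of these set the clusters, and clusters were named "-like" from marker genes. Every one of the 12 or 13 markers of the glia-like and BEC-like classes was detected there, as were all 11 of the fibroblast-like class. This gave 128 stromal, 189 endothelial, 92 glial, 2376 epithelial and 2830 immune or blood cells. The mice contributed very unequal numbers: of the 73 fibroblast-like cells, control replicate 2 gave 29 and EC-Foxc-DKO replicate 1 gave 41, control replicate 1 gave 2 and EC-Foxc-DKO replicate 2 gave 1. In all, 51 barcodes occurred in more than 1 library, and 24 kept cells carried such a barcode. Foxc1 had 1 and 5 UMIs in BEC-like cells of the control mice and 1 and 0 in those of the EC-Foxc-DKO mice, and Foxc2 had 0 in all 4, so that these counts are too low to check the deletion. In that class Cre had 3 UMIs in EC-Foxc-DKO replicate 1, 2 in EC-Foxc-DKO replicate 2 and 0 in either control mouse. Levels are in CPM, in which the UMIs of a gene are scaled to 1000000 UMIs of that class in that mouse, and can be compared between classes for 1 gene. Means and SDs are over mice with at least 10 cells of a class, and values of mice with fewer cells are given as such. Because the classes are clusters of the same cells, a class against another class is a description and was not tested.

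The 10 genes divided by tissue. Of all UMIs of a gene in the kept cells, stromal cells held 97.3% for Grem1 (748 UMIs), 96.3% for Bmp5 (26 UMIs), 62.2% for Bmp4 (173 UMIs) and 58.8% for Chrdl1 (20 UMIs), although they were only 128 of the 5615 cells. Glial cells held most of the remaining Chrdl1, with 13 UMIs. Epithelial cells, which were both the most deeply sequenced and among the most numerous, held 94.9% of Id1, 91.4% of Smad6, 88.5% of Id3, 87.8% of Bmp2 and 69.0% of Bmp7. Id2 was the only one of the 10 genes with a large immune share, 46.1% beside 52.4% in epithelial cells. These shares follow the number and depth of the cells, and the level per UMI gave another order. Pooled over mice, Id1 was at 361 CPM in endothelial and 171 CPM in epithelial cells, Id3 at 591 and 159 CPM, and Smad6 at 25.9 and 9.496 CPM. Likewise Bmp2 was at 48.0 CPM in stromal and 20.1 CPM in epithelial cells, and Bmp7 at 12.2 and 1.13 CPM. In these pooled values the 4 ligands and Grem1 were thus highest per UMI in stromal cells, Id1, Id3 and Smad6 in endothelial cells, and Chrdl1, at 28.4 CPM against 18.8 CPM in stromal cells, in glial cells. For Bmp7 this rests on 13 UMIs, in 3 of 73 fibroblast-like and 3 of 9 mesothelium-like cells. By class, the mean of Bmp2 was 89.4 CPM in top enterocyte-like and 59.4 CPM in fibroblast-like cells. The pools also mix the mice unequally, with 14 and 39 stromal cells from control and 72 and 3 from EC-Foxc-DKO mice.

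**Figure D1:**
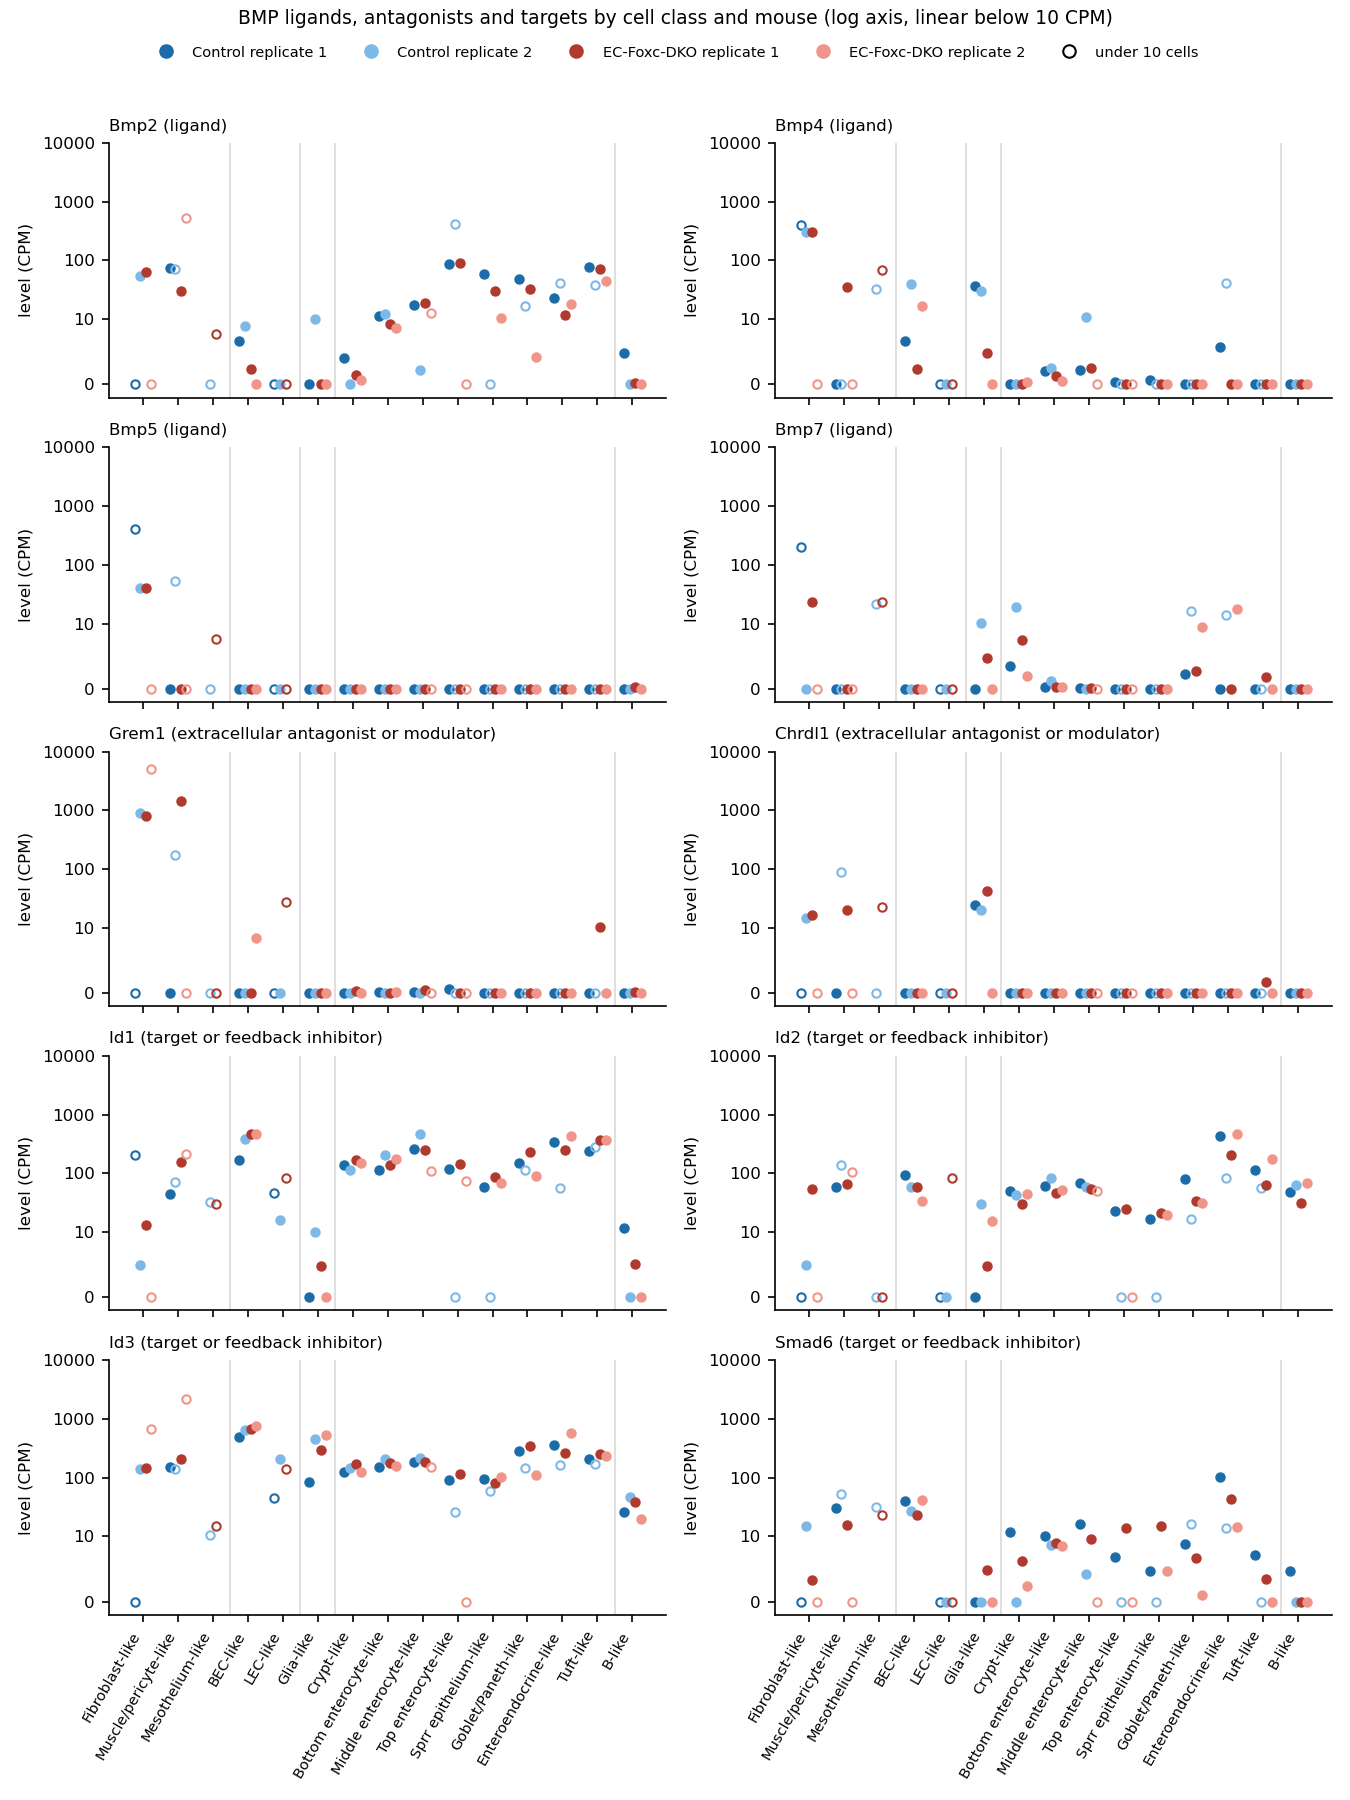
Level of each of the 10 genes (CPM, on a log axis that is linear below 10) in 15 cell classes, with 1 point per mouse and open circles for mice with fewer than 10 cells of the class. Bmp4 and Bmp5 stand out in fibroblast-like cells, and Grem1 is high there and in muscle/pericyte-like cells of EC-Foxc-DKO replicate 1. Id1 and Id3 are spread over BEC-like and epithelial classes, and Id1, unlike Id3, is near 0 in glia-like cells.

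Bmp4, Bmp5 and Grem1 had their highest mean level in fibroblast-like cells, from at least 22 UMIs there, and the 250 bases upstream of their annotated starts are shown because they differ in the short motifs known to be bound by SMAD proteins. The sequences are those of RefSeq on GRCm38.p6 and read along the gene's strand, and the motifs GGCGCC and CAGAC (or its reverse complement GTCTG) are in capitals. Windows were matched for 6 of the 10 genes. Bmp4 lies on the minus strand of chromosome 14 (chr14:46390670-46390919), Bmp5 on the plus strand of chromosome 9 (chr9:75775115-75775364) and Grem1 on the minus strand of chromosome 2 (chr2:113758649-113758898).
Bmp4: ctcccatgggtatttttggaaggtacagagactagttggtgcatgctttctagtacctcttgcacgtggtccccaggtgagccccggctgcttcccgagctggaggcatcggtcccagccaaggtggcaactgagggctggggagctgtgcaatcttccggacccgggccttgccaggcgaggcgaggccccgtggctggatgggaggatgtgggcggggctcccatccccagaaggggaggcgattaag
Bmp5: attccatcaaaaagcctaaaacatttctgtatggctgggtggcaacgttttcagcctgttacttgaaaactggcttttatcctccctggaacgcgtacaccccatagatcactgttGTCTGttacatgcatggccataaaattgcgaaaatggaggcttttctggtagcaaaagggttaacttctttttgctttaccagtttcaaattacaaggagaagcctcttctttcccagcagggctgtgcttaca
Grem1: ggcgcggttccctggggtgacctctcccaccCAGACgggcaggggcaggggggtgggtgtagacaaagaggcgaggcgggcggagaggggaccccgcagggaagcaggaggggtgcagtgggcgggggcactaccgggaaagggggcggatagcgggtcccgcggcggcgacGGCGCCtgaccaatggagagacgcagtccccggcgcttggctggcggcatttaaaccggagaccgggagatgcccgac
The window of Grem1 held 1 GGCGCC, 78 bases before the start, and 1 CAGAC, 219 bases before it. Bmp5 held 1 GTCTG and Bmp4 neither motif. Among 32851 windows of this length, 9.59% hold GGCGCC on either strand and 42.2% hold CAGAC, so that a match is common and is a description of the letters, not of binding.

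Bmp4, which encodes a ligand secreted by mesenchyme beneath the epithelium, was the most widely detected ligand of fibroblast-like cells. Its level there was 309 CPM in control replicate 2, against 303 CPM in EC-Foxc-DKO replicate 1, and 408 CPM in the 2 cells of control replicate 1, while the single cell of EC-Foxc-DKO replicate 2 had none. At least 1 Bmp4 UMI was found in 56 of the 73 cells (76.7%, exact 95% CI 65.4 to 85.8, for counting error only). B-like cells, which should lack the gene, had it in 0 of 1378 cells, a limit of 0.218%. The median depths were 3246.5 UMIs in B-like and 6098 in fibroblast-like cells. The next classes that had at least 2 mice with enough cells were far lower and overlapped each other. BEC-like cells had 6.72 and 40.1 CPM in control and 2.32 and 17.0 CPM in EC-Foxc-DKO mice, from 1 to 9 UMIs per mouse, and the means were 17.9 CPM in muscle/pericyte-like and 17.7 ± 18.0 CPM (SD, n = 4 mice) in glia-like cells. The muscle/pericyte-like value came from 3 cells of EC-Foxc-DKO replicate 1, which also held Grem1. The 84 epithelial Bmp4 UMIs corresponded to 1.21 CPM.

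Bmp5 was narrower. All but 1 of its 27 UMIs were stromal, 22 of them in fibroblast-like cells, with 39.8 CPM in control replicate 2, 40.4 CPM in EC-Foxc-DKO replicate 1 and 408 CPM (2 UMIs) in the 2 cells of control replicate 1. The mice with enough cells thus had nearly equal levels, but each rests on 8 or 12 UMIs. No Bmp5 UMI was found in BEC-like, LEC-like, glia-like or any epithelial class. Bmp7 had only 113 UMIs in all. In fibroblast-like cells it had 0 and 23.6 CPM in the 2 mice with enough cells, from 0 and 7 UMIs, so that it was found in 1 of these mice only. Crypt-like cells, which hold the dividing epithelium, had Bmp7 in every mouse, at 3.46 and 19.4 CPM in control and 7.41 and 1.94 CPM in EC-Foxc-DKO mice. Bottom enterocyte-like cells lay below all of these, at 0.210 to 1.25 CPM.

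Bmp2 had its highest mean level in top enterocyte-like cells but was not confined to the epithelium. Along the enterocyte-like classes its level rose from crypt to villus top in both mice that had enough cells of all 4 classes. In control replicate 1 it was 4.04 CPM in crypt-like, 11.2 CPM in bottom, 17.3 CPM in middle and 87.5 CPM in top enterocyte-like cells. In EC-Foxc-DKO replicate 1 the same order gave 1.48, 9.22, 19.1 and 91.2 CPM. In both mice the top class was thus above the middle class by over 4-fold. Top enterocyte-like cells had the highest mean of all 20 classes that had at least 2 mice with enough cells (89.4 ± 2.64 CPM, SD, n = 2 mice). They did not overlap with the next class, tuft-like cells. The macrophage-like class, with a lower mean, ran from 2.24 to 190 CPM and so spanned that level. The other mice do not cover the 4 classes from crypt to top. Control replicate 2 had 0, 12.5 and 2.14 CPM in the crypt-like, bottom and middle classes, where middle rests on 1 UMI, and 425 CPM in only 3 top enterocyte-like cells, all 16 UMIs in 1 cell. EC-Foxc-DKO replicate 2 had 0.648 and 8.66 CPM in the crypt-like and bottom classes and only 9 middle and 2 top cells.

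Outside the enterocytes, Bmp2 was high in tuft-like cells, chemosensory cells of the epithelium, at 76.4 CPM in control replicate 1, against 71.3 and 43.9 CPM in EC-Foxc-DKO mice, and 40 of the 66 tuft-like cells had a UMI (60.6%, exact 95% CI 47.8 to 72.4; 7.20% when cells were thinned to 1000 UMIs). In B-like cells the share was 3 of 1378 (0.218%) and 0.0619% after thinning, at a median of 3246.5 UMIs against 17168 in tuft-like cells. Fibroblast-like cells also had Bmp2, with 54.8 CPM in control replicate 2, against 63.9 CPM in EC-Foxc-DKO replicate 1. Muscle/pericyte-like cells had 30.7 to 74.8 CPM over the 2 mice with enough cells, and a UMI in 16 of 46 cells (34.8%). In BEC-like cells Bmp2 was 0 to 8.92 CPM, at most 2 UMIs per mouse.

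Grem1, whose product binds BMP2, BMP4 and BMP7 and keeps them from their receptors, was the most abundant of the 10 genes in fibroblast-like cells by UMIs. It had 892 CPM in control replicate 2, against 797 CPM in EC-Foxc-DKO replicate 1, no UMI in the 2 cells of control replicate 1 and 38 UMIs in the single cell of EC-Foxc-DKO replicate 2. Of the 73 cells, 41 had a UMI (56.2%, exact 95% CI 44.1 to 67.8), against 1 of 1378 B-like cells (0.0726%) and 1 of 171 BEC-like cells (0.585%), whose median depths were 3246.5 and 4254 UMIs. Glia-like cells had 0 UMIs. The gene was therefore close to confined to stromal cells among the classes studied here, with 2 endothelial, 15 epithelial and 4 immune UMIs elsewhere.

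**Figure D2:**
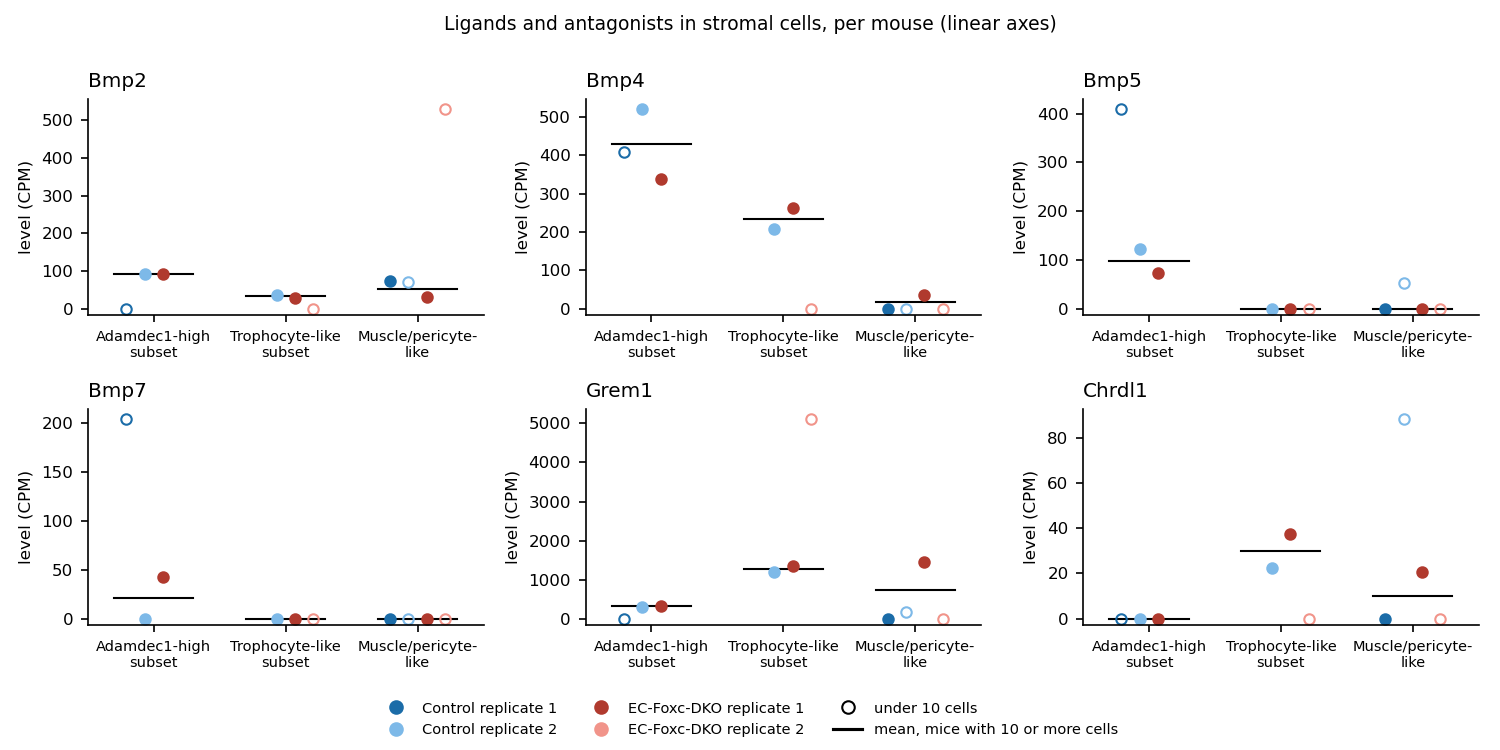
Level (CPM, linear axes) of the 4 ligand and 2 antagonist genes in the subsets of fibroblast-like cells and in muscle/pericyte-like cells, with 1 point per mouse, open circles for fewer than 10 cells and bars for the mean over mice with 10 or more cells. Between the subsets, Bmp5 and Bmp7 are found on the Adamdec1-high side and Grem1 is higher on the trophocyte-like side, while Bmp4 is found in both. Bmp5 also has a muscle/pericyte-like point above 0, from 3 of 7 cells of control replicate 2.

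Fibroblast-like cells fell into 2 subsets when they were clustered by themselves at a resolution of 0.5, again without the BMP genes. One, of 37 cells, was led by Adamdec1 and Col6a5 and had 3 of the 4 markers of Pdgfra-low stroma, although H2-Aa and Cd74, genes of antigen presentation, also led it. The other, of 36 cells, was led by Inmt and Cilp and had 3 of the 5 trophocyte markers, with Pi16 and Ackr4 among its leading genes. It is called trophocyte-like, after the stromal cells that sit beneath the crypts. Only control replicate 2 (12 and 17 cells) and EC-Foxc-DKO replicate 1 (23 and 18 cells) had enough cells of each. Grem1 was higher in the trophocyte-like subset in both mice, 1184 against 290 CPM and 1360 against 337 CPM. Bmp4 went the other way in both, with 207 against 518 CPM and 262 against 337 CPM.

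Bmp5 was found in 1 subset only. All 22 of its UMIs in fibroblast-like cells lay in the Adamdec1-high subset, at 122 and 73.4 CPM in the same 2 mice, and none in the 36 trophocyte-like cells (limit for 0 cells, 8.33% with a UMI). The 8 Bmp7 UMIs lay in the Adamdec1-high subset too, but 7 of them were in 2 cells of 1 mouse. Chrdl1, which encodes a chordin-like antagonist of BMP4, showed the reverse, with 22.2 and 37.4 CPM in trophocyte-like cells and 0 UMIs in the 37 Adamdec1-high cells. Bmp2 was at 91.5 and 91.8 CPM in Adamdec1-high and at 37.0 and 29.9 CPM in trophocyte-like cells. Both subsets thus carried Bmp2, Bmp4 and Grem1 and differed in their levels, whereas Bmp5 and Chrdl1, from few UMIs, were each found in 1 subset. At this resolution the direction was the same in both mice for each of these genes. At a resolution of 1, chosen after these subsets had been seen, there were 3, of 34, 23 and 16 cells, the last of which could not be named and had Ptx3, Top2a and E2f1 among its leading genes. The direction of Bmp4 then rested on the resolution. It was at 518 CPM in the Pdgfra-low and 218 CPM in the trophocyte-like subset of control replicate 2, whereas EC-Foxc-DKO replicate 1 had 429 and 464 CPM, and Bmp4 was found in 29 of 34 and 20 of 23 cells. Grem1 was still higher on the trophocyte-like side in both mice, at 1452 against 290 CPM and at 2765 CPM (9 cells) against 396 CPM, and Bmp5 still had 0 UMIs in the other 2 subsets.

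Some cells held UMIs of both an antagonist and a ligand. Among the 73 fibroblast-like cells, 34 had UMIs of both Grem1 and Bmp4, 22 of Bmp4 only and 7 of Grem1 only. Since Grem1 was found in 41 of the cells and Bmp4 in 56, many cells with both would arise without any link between the genes. A link was not tested. Grem1 and Bmp5 were found together in 3 cells, and Grem1 and Bmp7 in 0. A cell with no UMI may still express the gene, since these cells held a median of 6098 UMIs.

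Muscle/pericyte-like cells gave an unsteady picture of Grem1. Their 294 UMIs came from 7 of the 46 cells, and most of them from 3 cells of EC-Foxc-DKO replicate 1, with 93, 83 and 81 UMIs. These 3 cells were deep, with 25841, 28522 and 18053 UMIs of all genes, and their Grem1 was at 3599, 2910 and 4487 CPM. Per mouse Grem1 was at 0 CPM in control replicate 1 and 176 CPM in the 7 cells of control replicate 2. It was at 1454 CPM in EC-Foxc-DKO replicate 1, with none in the 2 cells from EC-Foxc-DKO replicate 2. The 7 cells differed from the rest of their class in some genes. They held 0 UMIs of Notch3, a pericyte gene, where the 39 others held 188, and 57 UMIs of the muscarinic receptor gene Chrm2, where the others held 0. Rgs5, another pericyte gene, and Actg2, a gene of smooth muscle, were found in 6 of the 7 cells each, with 209 and 259 UMIs. With the cells summed, Rgs5 was at 2188 CPM in the 7 cells and 3619 CPM in the 39 others. Actg2 was at 2711 and 696 CPM. The 7 cells also held 0 UMIs of Id1, Id3 and Bmp2, where the others held 39, 80 and 20. Bmp4 went the other way, with 7 UMIs in 3 of the 7 cells and 0 in the others. Chrdl1 had 6 UMIs in 3 of the 7 cells and 3 UMIs in 1 of the others.

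Of these 7 cells, 4, among them the 3 with the most Grem1, had doublet scores in the range that was removed in an alternative, which left 33 of the 294 UMIs. The mean level in the class was 727 CPM with these cells and 76.6 CPM in the class named again without high scores. The 3 cells with Grem1 that were kept were at 4147, 1463 and 1314 CPM. In fibroblast-like cells the same removal left 40 of the 41 cells with Grem1 and 431 of 454 UMIs. At a mitochondrial limit of 20%, Grem1 in muscle/pericyte-like cells was at 1006 CPM in control replicate 1, from 98 UMIs of 1 cell, 180 CPM in control replicate 2, against 1390 CPM in EC-Foxc-DKO replicate 1. It was found in 1 of 17, 3 of 26 and 14 of 42 cells of these mice. A cluster of 20 muscle/pericyte-like cells then had Grem1 and Actg2 among its leading genes, at a median of 16154.5 UMIs. At that limit the class could be tested between 2 control mice and 1 EC-Foxc-DKO mouse, and Grem1 was called higher (log2 fold change 1.37, SE 0.44, edgeR adjusted p = 0.0493), in a class where 127 of 3672 genes were called in either direction (3.46%), among them, of the 12 pathway genes tested, Id4 (log2 fold change -1.94, edgeR adjusted p = 0.00943). Its control UMIs were 98 from the 1 cell of control replicate 1 and 27 from 3 cells of control replicate 2. The EC-Foxc-DKO group was 1 mouse, and at the limit of 10% the class had too few mice for a test.

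Chrdl1 had 34 UMIs in all and was seen on both sides of the tissue boundary. Glia-like cells, the supporting cells of the enteric nerves, had 24.1 and 20.05 CPM in control and 43.0 and 0 CPM in EC-Foxc-DKO mice, from 2, 2, 9 and 0 UMIs. They were found in 12 of the 92 cells (13.0%, exact 95% CI 6.93 to 21.7), against 0 of 1378 B-like cells, which allows up to 0.218%, at median depths of 4232 and 3246.5 UMIs. Fibroblast-like cells had 14.9 and 16.8 CPM in control replicate 2 and EC-Foxc-DKO replicate 1, within the range of the glia-like values. Stromal Chrdl1 was not confined to them. Of the 46 muscle/pericyte-like cells, 4 had a UMI (8.70%), close to the 8.22% of fibroblast-like cells, but 3 of these 4 were among the 7 cells with Grem1 described above. Their 2 mice with enough cells ranged from 0 to 20.5 CPM (mean 10.2 CPM). At a mitochondrial limit of 20%, this class reached 60.1 CPM in control replicate 2, with a UMI in 5 of 26 cells. The other mice with enough cells were then at 0 and 10.5 CPM. No Chrdl1 UMI was found in BEC-like, LEC-like or enterocyte-like cells.

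Around these genes, the other 35 genes of the pathway were read by role, naming for 4 classes the 2 with the highest level of each role. Glia-like cells were set apart by Sostdc1, which encodes a secreted BMP and Wnt antagonist, at 1362 ± 97.8 CPM (SD, n = 4 mice), the highest level of any pathway gene in the classes shown. Its lowest mouse was at 1257 CPM and its highest at 1492 CPM. Fibroblast-like cells had the secreted modulators Fstl1 at 596 ± 101 CPM and Nbl1 at 386 ± 94.5 CPM and the further ligand Bmp6 at 55.1 ± 6.58 CPM (SD, n = 2 mice each). Bmp6 was also the highest of these ligand genes in BEC-like cells, but at 43.8 ± 52.9 CPM (SD, n = 4 mice) with a mouse at 0, so that its level there was not settled. Crypt-like cells had Bmp3, at 33.7 ± 6.62 CPM (SD, n = 4 mice), as the highest of the other ligand genes. Of the 35 genes, 3 had no UMI in the named classes.

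Receptors were found on all sides. In BEC-like cells the endothelial coreceptor gene Eng had 841 ± 189 CPM and the type II receptor gene Bmpr2 had 511 ± 84.9 CPM (SD, n = 4 mice). Bmpr2 was at 177 ± 45.6 CPM in fibroblast-like (n = 2 mice), 170 ± 59.9 CPM in glia-like and 20.2 ± 2.59 CPM in crypt-like cells, and the lowest BEC-like mouse, at 408 CPM, lay above every mouse of these 3 classes. The type I receptor gene Bmpr1a was the highest receptor gene by CPM of the crypt-like class, at 48.0 ± 15.4 CPM, and had 112 ± 39.1 CPM in fibroblast-like cells. Smad4, the shared partner of the signal transducers, was nearly level, at 97.5 ± 40.7 CPM in BEC-like, 86.9 ± 3.92 in fibroblast-like, 98.4 ± 37.3 in glia-like and 98.3 ± 11.5 CPM in crypt-like cells.

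**Figure D3:**
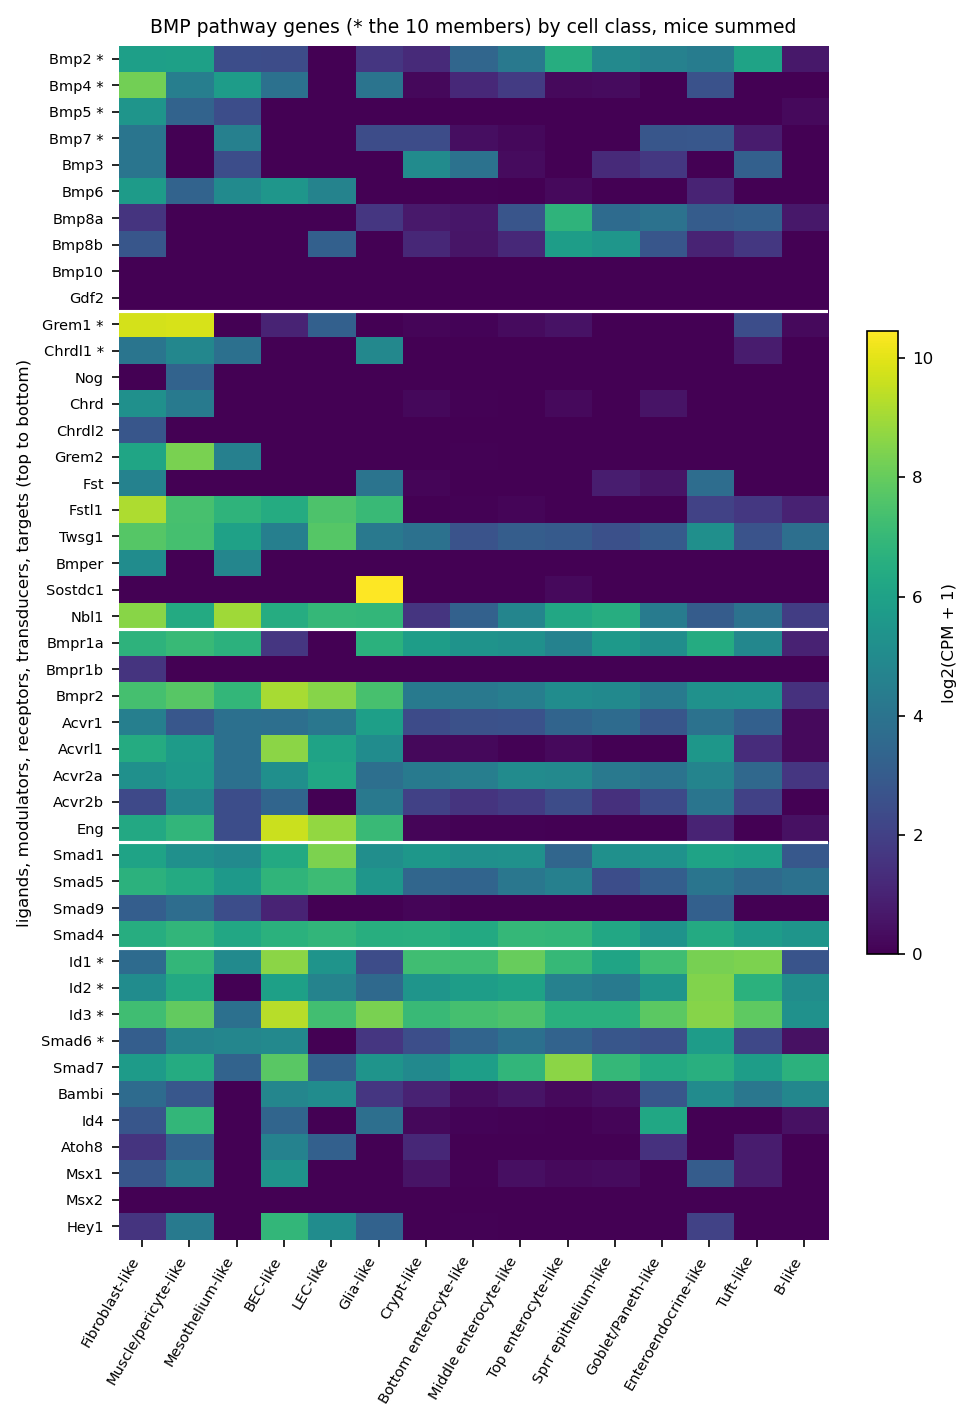
Level of the 10 genes (marked with an asterisk) and of 35 other BMP pathway genes in 15 cell classes, as log2(CPM + 1) with the mice summed, ordered by role from ligands at the top to targets at the bottom. Sostdc1 is bright in the glia-like column alone, Eng and Bmpr2 peak in BEC-like cells, and the row of Id1 is dark in glia-like cells where that of Id3 is bright.

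Among the target genes, Id1 and Id3 had their highest mean in BEC-like cells. Id1 had 168 and 392 CPM in control and 469 and 476 CPM in EC-Foxc-DKO mice there, and Id3 had 497 and 646 CPM and 669 and 765 CPM. Control replicate 1 was the lowest mouse for both genes. For neither gene was the class separated from the next one, enteroendocrine-like cells, the hormone-secreting cells of the epithelium. These had 337 CPM of Id1 in control replicate 1, against 250 and 431 CPM in EC-Foxc-DKO mice. Id1 was found in 99 of 171 BEC-like cells (57.9%, exact 95% CI 50.1 to 65.4), or 27.4% after thinning to 1000 UMIs, and in 28 of 1378 B-like cells (2.03%), or 0.547% after thinning. In the 18 LEC-like cells Id1 had 5 UMIs, at 45.9 and 15.9 CPM in control mice, and EC-Foxc-DKO replicate 1 had 83.4 CPM, from 3 to 10 cells each.

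Glia-like cells parted the targets from each other. Id3 had 84.2 and 451 CPM in control and 301 and 537 CPM in EC-Foxc-DKO mice, 150 UMIs in 46 of the 92 cells, whereas Id1 had 2 UMIs in these cells, 0 to 10.0 CPM per mouse. Fibroblast-like cells showed the same split at a lower level, with Id3 at 139 and 148 CPM and Id1 at 4.98 and 13.5 CPM in control replicate 2 and EC-Foxc-DKO replicate 1. In BEC-like and epithelial classes both genes were found. Muscle/pericyte-like cells had both as well, with Id1 at 44.9 and 154 CPM and Id3 at 150 and 210 CPM in control replicate 1 and EC-Foxc-DKO replicate 1.

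Id2 had another distribution. Its highest means were in CD8 T-like cells, at 562 ± 124 CPM, and macrophage-like cells, at 523 ± 197 CPM (SD, n = 4 mice each), in both of which it is known as a regulator of lymphoid and myeloid differentiation. Enteroendocrine-like cells followed among the epithelium, at 431 CPM in control replicate 1, against 203 and 463 CPM in EC-Foxc-DKO mice. BEC-like cells had 94.1 and 58.0 CPM in control and 58.0 and 34.0 CPM in EC-Foxc-DKO mice, and enterocyte-like classes stayed between 22.7 and 82.2 CPM in every mouse with enough cells. Smad6, the feedback inhibitor, was lower than the Id genes in count, with its highest means in enteroendocrine-like cells at 53.1 ± 44.8 CPM (SD, n = 3 mice) and in BEC-like cells at 33.2 ± 9.63 CPM (SD, n = 4 mice). It had 40.3 and 26.7 CPM in BEC-like cells of the control mice and 23.2 and 42.5 CPM in those of the EC-Foxc-DKO mice, so that the genotypes overlapped. In glia-like cells Smad6 had 1 UMI and in LEC-like cells 0.

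**Figure D4:**
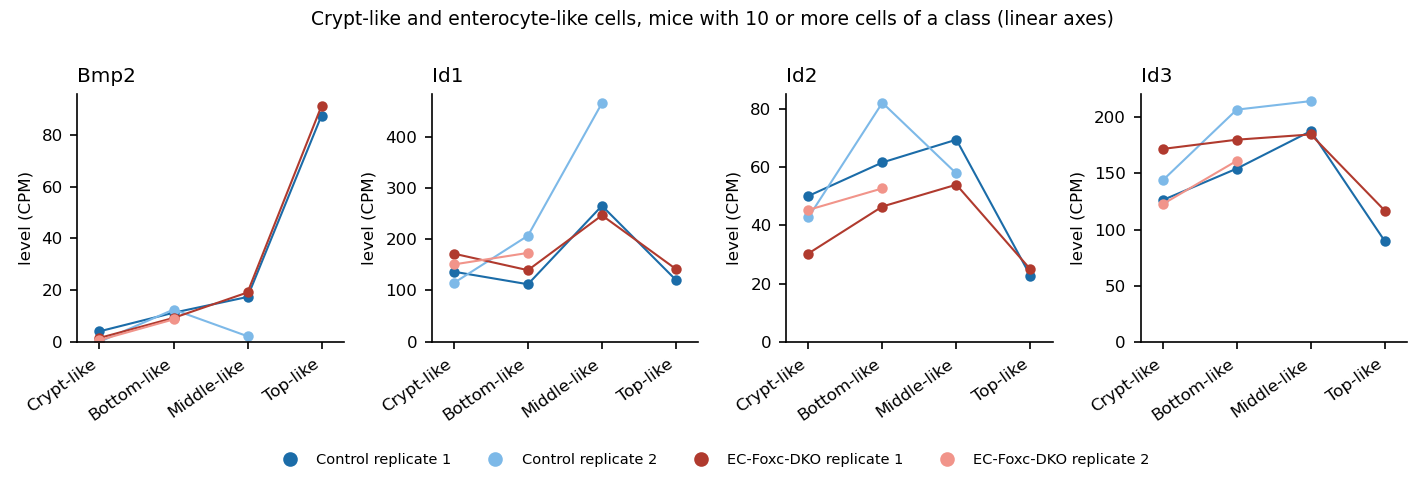
Level (CPM, linear axes from 0) of Bmp2, Id1, Id2 and Id3 in crypt-like and bottom, middle and top enterocyte-like cells, with 1 line per mouse and only mice with 10 or more cells of a class. Bmp2 is highest in the top class, whereas Id1, Id2 and Id3 fall from the middle to the top class in both mice that have it.

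Along the enterocytes the Id genes did not follow Bmp2. In control replicate 1, Id1 was at 137, 112, 265 and 120 CPM from crypt-like to top enterocyte-like cells, and in EC-Foxc-DKO replicate 1 at 172, 140, 247 and 142 CPM. The peak in the middle class was the same in both mice. Id3 gave 126, 154, 188 and 89.7 CPM and 172, 180, 185 and 117 CPM, and Id2 gave 50.2, 61.7, 69.5 and 22.7 CPM and 30.4, 46.5, 54.0 and 24.9 CPM. For all 3 Id genes and both mice the top class, where Bmp2 was at its highest, lay below the middle class. Control replicate 2 had its highest Id1 in the middle class as well, 465 CPM against 115 CPM in crypt-like cells, and had too few top cells to follow it further. Smad6 differed between the mice, with 12.1, 10.1, 16.2 and 6.85 CPM in control replicate 1, where it was lowest in the top class, but 6.29, 9.01, 9.54 and 13.8 CPM in EC-Foxc-DKO replicate 1, where it rose in the same order as Bmp2. The classes come from clusters that were named by markers of position, so that the axis itself was not measured.

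For all of the 10 genes but Bmp5, the genes with the most similar pattern over 20 classes were found by the correlation of log2(CPM + 1) among 13973 genes, as a description. Grem1 was most like Pcdh18 (r = 0.987), Astn2 and Pla2r1, and Bmp4 most like Tnxb (r = 0.936), Efna5 and F830016B08Rik. Chrdl1 was most like Col5a3 (r = 0.998), Mrap2 and Eda, but it had no UMI in 16 of the 20 classes, so that its r rests on few classes. Id1 was most like F11r (r = 0.906), B3gnt3 and Prrg2, and Id3 most like Npdc1 (r = 0.901), Tmem246 and Mpzl1. Smad6 was most like Tsc22d1 (r = 0.925), Cdc42bpb and Dock6. Bmp2 (Zdhhc5, r = 0.837, then Phf13 and Inppl1), Id2 (Apobr, r = 0.795, then Il18rap and Madd) and Bmp7 (Zdhhc15, r = 0.793, then Fam185a and Pcgf2) had lower values of r. The number of classes with no UMI ran from 0 for Id2 to 16 for Chrdl1, so that r cannot be ranked between these genes. The classes share libraries and differ in depth, which enters each of these values.

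The design asks whether deleting Foxc1 and Foxc2 from the endothelium changed gene levels, there or in other cells. UMIs were summed per mouse and class and compared with edgeR's quasi-likelihood test over all genes, with p-values adjusted by the Benjamini-Hochberg method. Of the 10 genes and the 35 pathway genes, none that passed the filter on low counts was called in any of the 15 classes that could be tested. Few genes were called at all. Per class, 1 to 6 of the 10 genes and 0 to 13 of the 35 passed that filter. Grem1, Chrdl1 and Bmp5 passed it in none of these classes, Bmp7 in crypt-like cells only and Bmp4 in bottom and middle enterocyte-like cells only. In BEC-like cells 0 of 3487 genes passed (0%), with 97 at an unadjusted p under 0.05 and 2 called by DESeq2. In glia-like cells the count was 0 of 1644 (0%), with 38 at an unadjusted p under 0.05 and 0 by DESeq2, and in crypt-like cells 0 of 9276 (0%), with 229 and 4. The largest share among epithelial classes was 0.255% (25 of 9801 genes) in middle enterocyte-like cells, followed by 0.191% (10 of 5246) in enteroendocrine-like cells. Among immune and blood classes it was 0.965% in plasma or dividing B-like, 0.768% in erythroid-like and 0.124% in CD4 T-like cells. Top enterocyte-like cells could be tested only at a mitochondrial limit of 20%, where 0.159% of 8175 genes were called. Of the 10 genes, 5 were tested there and none was called. Among the alternatives in which a pathway gene or one of the 10 was called, the shares were 0.374% of 13900 genes for macrophage-like cells with no filter on low counts, 2.33% of 7130 genes for these cells without control replicate 1, 9.90% of 10224 genes for bottom enterocyte-like cells without EC-Foxc-DKO replicate 1 and 4.82% of 4628 genes for plasma or dividing B-like cells without control replicate 1. On simulated counts of BEC-like cells, the test recovered 71.0% of the genes given a log2 change of 2 but 7.45% of those given a log2 change of 1, so that a change of 2-fold would mostly be missed with 2 mice per genotype.

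Among BEC-like cells, an endothelial class at which Cre is aimed, Id1, Id2 and Id3 had enough UMIs to be tested. Id1, with the values given above, was higher by 0.71 on the log2 scale in EC-Foxc-DKO mice (SE 0.41, 95% interval -0.20 to 1.63, edgeR adjusted p = 0.999). That difference rests largely on control replicate 1, since without that mouse it was 0.27 and without control replicate 2 it was 1.47. The BEC-like cells of control replicate 1 also stood apart in markers of macrophages. Their summed level of 14 macrophage markers, 13 of which were detected, was 5277 CPM, against 718 to 969 CPM in the other 3 mice. Their summed level of 5 epithelial markers was 249 CPM, against 58.0 to 209 CPM, a much smaller gap. Sums of other marker lists are not reported here. The part of these in the result was not tested. Id3 moved less, by 0.30 (SE 0.29, edgeR adjusted p = 0.999), and Id2 was lower by a log2 fold change of -0.55 (SE 0.48, edgeR adjusted p = 0.999).

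In glia-like cells only Id3 of the 10 genes could be tested, with a log2 fold change of 0.51 (SE 0.69, 95% interval -1.05 to 2.07, edgeR adjusted p = 1.00). Control replicate 1, at 84.2 CPM, was the low mouse, and without it the value was -0.21, so that the direction rested on it. In crypt-like cells Id1 had 137 and 115 CPM in control and 172 and 151 CPM in EC-Foxc-DKO mice, a log2 fold change of 0.35 (SE 0.25), and Id3 had 126 and 144 against 172 and 123 CPM, a log2 fold change of 0.12 (SE 0.29; edgeR adjusted p = 1.00 for both). The 95% interval of Id1 in crypt-like cells, not adjusted for the number of genes, ran from -0.25 to 0.95. On simulated counts of crypt-like cells, the test recovered 3.06% of the genes given a log2 change of 1.

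**Figure D5:**
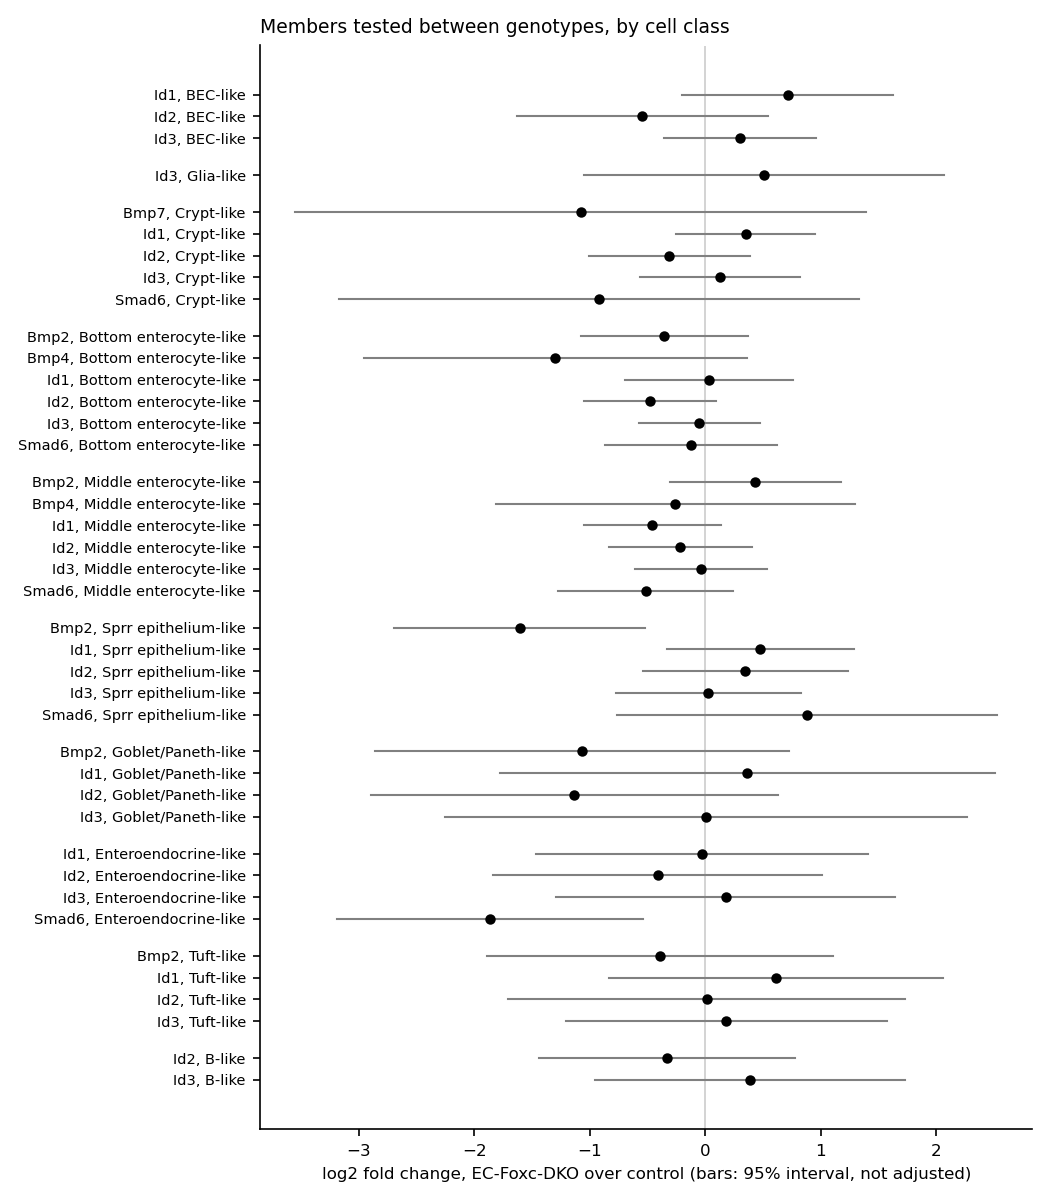
Log2 fold change of EC-Foxc-DKO over control for each of the 10 genes in the classes where it passed the filter on low counts, with bars for the 95% interval that is not adjusted for the number of genes. Among the classes drawn, only Bmp2 in Sprr epithelium-like cells and Smad6 in enteroendocrine-like cells have bars that stay below 0, and neither passed the threshold after adjustment over all genes.

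In the other epithelial classes the largest differences were those of Bmp2 and Smad6. In Sprr epithelium-like cells, an epithelial class with Sprr2a3 and Akr1b8 among its leading genes, Bmp2 had 58.7 CPM in control replicate 1, against 30.5 and 10.3 CPM in EC-Foxc-DKO mice, so that both were below the only control mouse with enough cells. The log2 fold change was -1.61 (SE 0.50, unadjusted p = 0.00723, edgeR adjusted p = 0.957, 0 of 8481 genes called or 0%, with 285 at an unadjusted p under 0.05 and 2 by DESeq2). Over the alternatives the adjusted p ranged from 0.0227 to 1.00. It passed the threshold with no filter on low counts (adjusted p = 0.0252, where 0.500% of genes were called) and after removal of cells with high doublet scores (adjusted p = 0.0227, where 0.707% were). In enteroendocrine-like cells Smad6 had 102 CPM in control replicate 1, against 43.0 and 14.3 CPM in EC-Foxc-DKO mice, a log2 fold change of -1.87 (SE 0.68, unadjusted p = 0.00574, edgeR adjusted p = 1.00). It rests on 36, 11 and 4 UMIs, and it missed the threshold in each alternative run.

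In both comparisons the control group was 1 mouse, and the spread came from the EC-Foxc-DKO mice alone. Fibroblast-like cells had enough cells in only 1 mouse per genotype, and the 10 genes could not be tested there. There, control replicate 2 and EC-Foxc-DKO replicate 1 stood at 892 and 797 CPM for Grem1, 309 and 303 CPM for Bmp4, 39.8 and 40.4 CPM for Bmp5 and 139 and 148 CPM for Id3, values with no replicate check.

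Whether the genotype difference in BEC-like cells departs from that in cells at which Cre is not aimed was asked of the same counts, with the mouse as a covariate. Against glia-like cells 1 of 3547 genes was called (0.0282%), against crypt-like cells 10 of 7962 (0.126%) and against B-like cells 19 of 4282 (0.444%), and none of the 10 genes was among them. For Id1 the difference, BEC-like minus the other class on the log2 scale, was 1.27 (SE 2.04) against glia-like, 0.49 (SE 0.45) against crypt-like and 2.14 (SE 1.00, unadjusted p = 0.0327) against B-like cells, and for Id3 it was -0.39 (SE 0.65), 0.24 (SE 0.44) and 0.12 (SE 0.66), each at an edgeR adjusted p of 1.00. Id1 in glia-like and B-like cells has 2 and 28 UMIs, so that its comparison there has little behind it.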

How the data were processed

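The authors dissociated the distal jejunum of each mouse, made 10x Genomics 3′ libraries and counted UMIs with Cell Ranger on mm10 with the sequence of Cre added (version 4.0.0 per the submitters' processing notes and file headers; the methods name another version). The deposited matrices, 1 per mouse, hold raw counts of UMIs for 32286 features. The control libraries summed to 72046346 and 15557181 UMIs, the EC-Foxc-DKO libraries to 64781444 and 38750638. The joined table of the 4 libraries served only to define the 18407 genes for the mitochondrial share, and 0 of its columns were left unmapped. With the share taken over all features, 5876 cells would be kept.

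Following the study's settings, cells over 10% mitochondrial UMIs were dropped, as were genes averaging less than 0.001 counts, values were scaled to 10000 UMIs and logged, and variable genes (mean 0.01 to 8, dispersion at least 0.5), 15 principal components, 15 neighbors and Leiden clustering at resolution 0.5 followed (scanpy 1.11.5, leidenalg 0.10.2, seed 0), with no batch correction. The 45 BMP genes were left out of the variable genes. A cluster was named from at least 3 detected markers that made up 30% of the list or more, with no other class holding more markers among its 10 leading genes. The clusters were known when these thresholds were chosen, and a difference from the study may come from the rebuilt names. Stromal cells, then fibroblast-like cells, were clustered again. Doublets were kept because no removal is described. The cut that Scrublet set by itself marked 13 of 5615 cells, so the 292 cells with the highest scores (0.8% per 1000 barcodes) were removed as an alternative.

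Genotypes were compared with edgeR 4.0.16 (glmQLFit and glmQLFTest, filterByExpr, TMM, R 4.3.3) on UMIs summed per mouse and class, for mice with at least 10 cells and classes with at least 3 mice of both genotypes, at an adjusted p of 0.05. DESeq2 1.42.0 was an alternative. The study tested single cells with MAST, which treats cells of 1 mouse as independent. The test was checked on simulated counts. Intervals of cell shares are exact binomial ones (95%) over the cells of all mice together, which leaves out the spread between mice. For a share of 0 the limit is 3 counts, and both cover counting error only. Thinned shares are those expected after drawing 1000 UMIs from each cell. Motifs were searched on both strands.

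The 10 genes, the 35 pathway genes, the marker lists and the tests were chosen with earlier results of these data known. Genes named are the 10 in every class, any pathway gene called, the 2 highest of each role in 4 classes, and the 3 most similar to each of the 10 among genes of at least 10 CPM in 1 class (those of Bmp5 are not reported here). Chrm2, Notch3, Rgs5 and Actg2 were chosen after their values were seen. The replicate numbers of the labels were taken to mark separate mice, and the labels state no pairing.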

Additional observations from a re-analysis of the deposited data

How the results depend on the processing

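None of the 10 genes, where it was tested, was called in a non-immune class under the alternatives run, except Bmp2 in Sprr epithelium-like cells and Grem1 in muscle/pericyte-like cells, as described above. The number of genes called did move. With DESeq2 it was 2 in BEC-like, 4 in crypt-like, 7 in bottom, 1 in middle enterocyte-like, 2 in Sprr epithelium-like and 1 in enteroendocrine-like cells. With no filter on low counts it was 57 in BEC-like, 50 in glia-like, 99 in crypt-like, 148 in bottom enterocyte-like, 69 in Sprr epithelium-like and 19 in tuft-like cells. With high doublet scores removed, a setting that merged the LEC-like cells into the BEC-like cluster, it was 2 in BEC-like, 57 in Sprr epithelium-like and 18 in enteroendocrine-like cells. With the BMP genes among the clustering genes it was 27 in Sprr epithelium-like cells, and at a mitochondrial limit of 20% it was 0 in enteroendocrine-like cells. Leaving out 1 mouse gave 12 to 32 genes in BEC-like, 0 to 48 in glia-like, 3 to 34 in crypt-like and 0 to 1012 in bottom enterocyte-like cells, where 1012 is the value without EC-Foxc-DKO replicate 1 (9.90% of 10224 genes) and includes, of 12 pathway genes tested, Nbl1, Bmp3 and Bmpr1a. Without control replicate 1, the pathway gene Smad7 was called in plasma or dividing B-like cells, with a log2 fold change of 7.85. With all 4 mice at a limit of 10%, 0 pathway genes passed the filter on low counts in that class. The control group of this fit was 1 mouse with 15 cells, so that the value is not support for a difference. A genotype left with 1 mouse took its spread from the other genotype. Where a setting changed a count, the cause was not tested.

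Samples with the same replicate number did not deviate together (correlations of -0.326 to 0.0222 over 8 classes). With the replicate number as a block, 6 genes were called in BEC-like, 1 in B-like, 1 in CD8 T-like and 24 in plasma or dividing B-like cells and 0 in the other 4 classes with 2 mice per genotype, and no call of the 10 genes changed. With the numbers crossed, chosen after seeing the data, 3 genes were called in crypt-like, 55 in bottom enterocyte-like, 1 in B-like, 1 in CD8 T-like and 11 in plasma or dividing B-like cells and 0 in BEC-like, glia-like and macrophage-like cells.

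Genes whose genotype effect differed from BEC-like cells numbered 4 for glia-like cells with no filter and 2 at a limit of 20%, and 1 for crypt-like cells at that limit. Without 1 mouse they numbered 1 to 13 (glia-like), 8 to 24 (crypt-like) and 1 to 19 (B-like). Without 1 mouse, Id3 ranged from -0.21 (control replicate 1 left out) to 2.24 in glia-like cells and turned to -0.16 in crypt-like cells when EC-Foxc-DKO replicate 1 was left out. The difference of Id1 between BEC-like cells and another class was -1.41 for glia-like cells at a limit of 20%. Without 1 mouse it ran from -1.11 to 3.36 for glia-like, from -0.21 to 1.25 for crypt-like and from -4.84 to 5.21 for B-like cells. That of Id3 was -0.04 for crypt-like cells with no filter, and without 1 mouse it ran from -1.66 to 0.39 for glia-like, from -0.09 to 0.59 for crypt-like and from -0.13 to 1.15 for B-like cells (-0.04 without control replicate 2). The directions of these differences were thus not settled.

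Over 109 mean levels and their alternatives, 794 recomputed values stayed within 1 SD and 66 did not. Among those that moved, Bmp2 in top enterocyte-like cells was 69.4 CPM at a limit of 20% and 78.8 as a mean over cells. Bmp4 was 397, 340 and 367 CPM in fibroblast-like cells (limit of 20%, high doublet scores removed, mean over cells) and 302 and 362 CPM in the trophocyte-like subset (limit of 20%, BMP genes in clustering). Grem1 was 921 CPM in fibroblast-like cells without high doublet scores, 218 and 246 CPM in the Adamdec1-high subset (limit of 20%, BMP genes in clustering) and 1504, 1529, 2095 and 1429 CPM in the trophocyte-like subset (limit of 20%, doublet scores, BMP genes in clustering, mean over cells), so that Grem1 remained higher there than in the Adamdec1-high subset. The depth limits what low genes show, as Bmp5 and Chrdl1 rest on 27 and 34 UMIs.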

Other observations

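Immune cells carried some of the ligands. Bmp2 in macrophage-like cells had 2.24 CPM in control replicate 1, 190 CPM in control replicate 2, and 16.7 and 28.5 CPM in the EC-Foxc-DKO mice, from 2, 65, 20 and 18 UMIs. Control replicate 2 was thus far above the other 3 mice, with 13 of its 36 macrophage-like cells holding a UMI. The log2 fold change between genotypes was -2.02 (SE 1.29, edgeR adjusted p = 1.00). It passed the threshold with no filter on low counts (-1.88, adjusted p = 0.0146, with 52 of 13900 genes called, or 0.374%) and without control replicate 1 (-3.12, adjusted p = 0.00102, with 166 of 7130 genes called, or 2.33%), where the control group is the high mouse alone. With all 4 mice and the filter, edgeR called 0 of 6860 genes, with 150 at an unadjusted p under 0.05, and DESeq2 called 0. Without control replicate 2 the direction turned, with a log2 fold change of 3.18 (adjusted p = 0.195). Bmp7 had 19 UMIs in CD8 T-like cells and was found there in all 4 mice, at 6.06 and 22.7 CPM in control and 5.90 and 12.2 CPM in EC-Foxc-DKO mice.

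Id2 in plasma or dividing B-like cells had 5.17 and 4.67 CPM in control and 42.5 and 64.6 CPM in EC-Foxc-DKO mice, from 1, 1, 52 and 24 UMIs. How many of the tested genes separate the mice in this way was not counted. The class joined a cluster of 105 cells led by Hist1h1b and Pclaf to another of 104 cells led by Igha and Jchain. Their mix per mouse was not compared. The log2 fold change of Id2 was 2.62 (SE 0.85, unadjusted p = 0.00796). It did not pass the threshold over the 2902 genes tested (edgeR adjusted p = 0.269), of which 28 were called (0.965%). Id3 in the same cells had 15.5 and 9.34 against 53.1 and 53.8 CPM (log2 fold change 1.38, SE 0.64, edgeR adjusted p = 0.482). Both genes passed the filter on low counts only through the EC-Foxc-DKO mice, where they were high. Their fold changes and p-values are therefore not support for a difference between genotypes.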
